A study of Mus musculus with 36 samples.

Results

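The 9 genes described here, Insr, Igf1r, Irs1, Irs2, Pik3r1, Akt1, Akt2, Inppl1 and Grb14, encode proximal steps of insulin signalling. They were found by matching the mouse gene symbols to the Ensembl identifiers of the gene-level count table, in which each symbol had a single identifier, and they are 9 of the 54347 genes listed. All 9 were among the 15340 genes that exceeded 1 CPM in at least 6 libraries. Each was above 1 CPM in 36 of 36 libraries. Printed CPM are gene counts scaled by the library total times a TMM factor (trimmed mean of M-values), which differs between libraries. Insulin binds a receptor tyrosine kinase that phosphorylates adaptor proteins, the insulin receptor substrates. The adaptors recruit phosphoinositide 3-kinase, whose lipid product PIP3 brings the Akt kinases to the membrane, and Akt then promotes glucose uptake and glycogen synthesis and holds FoxO transcription factors out of the nucleus. The pathway is restrained by lipid phosphatases, such as the Inppl1 product SHIP2, and by receptor-binding proteins such as GRB14, and it is best known for glucose and lipid handling in fat, muscle and liver.

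RNA sequencing was performed on 4 primary cell types from male wild-type mice, each treated for 6 h with PBS as vehicle (control), 5 mM of the sodium salt of (R)-3-hydroxybutyric acid (βOHB, the main ketone body, written bOHB in the sample labels) or 5 mM of the sodium salt of butyric acid (butyrate, which gut bacteria make from fibre and which blocks histone deacetylase enzymes). The 2 compounds differ in a hydroxyl group that βOHB carries. The cells were adipocytes differentiated in culture from the stromal vascular fraction of inguinal fat of pooled mice, macrophages grown from bone marrow, myotubes differentiated from hindlimb myoblasts, and hepatocytes obtained by collagenase perfusion. The strain was C57Bl/6 in the labels, the methods name C57BL/6NHsd mice for hepatocytes and C57BL/6N mice for some cells without saying which, and substrain and cell type cannot be told apart. Each of the 12 groups had 3 libraries, and whether these came from separate isolations was not given, so p-values measure the spread between these libraries, which may be technical. Adipocytes had been differentiated with insulin, which was withdrawn for the last days before treatment, the treatments were given in a different medium for myotubes and for hepatocytes, and no insulin stimulus was compared. All values are therefore steady mRNA levels, with no measure of protein, phosphorylation or glucose uptake. In these bulk cultures, fewer cells of a type and less RNA per cell cannot be told apart.

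The libraries held 18366289 to 23221473 estimated counts, with a median of 22177562. Each cell type carried its own markers. The sum over 8 adipocyte markers was 7831 to 10390 CPM in adipocytes, that over 8 macrophage markers 12510 to 17610 CPM in macrophages, that over 8 myotube markers 19360 to 34370 CPM in myotubes and that over 8 hepatocyte markers 30040 to 39490 CPM in hepatocytes. In controls and under butyrate these were 17370 to 17610 and 12510 to 13080 CPM in macrophages, and 26990 to 31430 and 19360 to 26510 CPM in myotubes. In hepatocytes they were 32150 to 33350 and 37700 to 39490 CPM, while adipocyte libraries overlapped. The part of these shifts in the results was not tested. Markers of other cell types were also found in some cultures. Macrophage markers summed to 325 to 405.5 CPM in adipocytes. They were lower under butyrate in myotubes, at 108 to 289 CPM in controls and 20.6 to 80.2 CPM under butyrate, and in hepatocytes, at 258 to 296 CPM and 123 to 139 CPM. In hepatocytes this sum was mostly Cd14, with means of 184 CPM in controls and 33.1 CPM under butyrate, and Cd68, which rose from 80.8 to 92.1 CPM. The other macrophage markers were at most at 3.16 CPM there. The sum over 5 endothelial markers in hepatocytes was 55.9 to 61.7 CPM in controls and 17.9 to 21.2 CPM under butyrate, in adipocytes 181 to 209.6 CPM and 128 to 149 CPM, and in macrophages 133 to 156 CPM and 102 to 113 CPM, while myotube libraries overlapped. In macrophages the mean of Vwf fell from 92.3 to 46.9 CPM while that of Kdr rose from 39.4 to 53.6 CPM. Pecam1, Cdh5 and Tek were at most at 6.98 CPM there. The 6 fibroblast markers summed to 5917 to 9106 CPM in adipocytes, 1911 to 2676 CPM in macrophages and 1249 to 2215 CPM in myotubes. In control macrophages they were mostly Col1a1 and Col1a2, with means of 1402 and 995 CPM. Dcn was at 19.7, Pdgfra at 9.76, Thy1 at 1.09 and Lum at 0.0 CPM there. The part of other cell types in the results was not tested. Hepatocyte markers, at most 0.22 CPM in the 3 control and in 2 βOHB libraries of myotubes, reached 24.5 CPM in βOHB replicate 3 and 35.2, 632 and 149.7 CPM in the 3 butyrate libraries. Myotube markers reached 80.6 CPM in butyrate replicate 3 of macrophages. In macrophages the summed level of 5 proliferation markers was 1488 to 1518 CPM in controls and 718 to 826 CPM under butyrate. In myotubes it was 35.6 to 82.2 CPM in controls, 19.2 to 26.4 CPM under butyrate and 21.8 to 26.5 CPM under βOHB, and in hepatocytes 7.13 to 12.2 CPM in controls and 16.9 to 19.7 CPM under butyrate, while adipocyte libraries overlapped. The hepatocyte means of Cdk1 (2.50 to 7.50 CPM) and Top2a (2.61 to 6.08) rose, that of Mki67 fell (3.01 to 2.39), and Ccnb1 and Birc5 were at most at 1.33 CPM. The part of proliferation in the results of these cells was not tested. Member calls made without the mixed butyrate libraries (replicates 2 and 3 of myotubes and replicate 3 of macrophages) are given beside the results they touch. They leave myotubes with 1 butyrate library, replicate 1, which is assumed to vary like the other groups. Butyrate replicate 3 of myotubes also stood apart from replicates 1 and 2 across all genes, with a mean chi-square per gene of 33.8 and 38.1 against 7.97 between those 2, and was the lowest of its group for 6 of 9 members. Some other libraries were the lowest of their group for more members. They were βOHB replicate 2 of myotubes (8 of 9), βOHB replicate 3 of macrophages (7) and control replicate 1 of hepatocytes (7).

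Promoter windows are printed for the member with the greatest decrease under butyrate (Inppl1) and for the pair of adaptor genes Irs1 and Irs2, which moved in opposite directions in hepatocytes, since the shared and differing letters of these windows accompany the expression values below. The windows are RefSeq promoter sequences on GRCm38.p6, each with 250 bases before and 50 bases after an annotated transcription start, printed 5′ to 3′ on the strand of the gene, and RefSeq windows were matched for 8 of the 9 members, 14 windows in all. Capitals mark the E-box CACGTG and the GC box GGGCGG, the latter on either strand, and adjoining boxes may overlap. Inppl1 has 2 annotated starts, at chr7:101838177-101838476 (window 1) and chr7:101837775-101838074 (window 2), Irs1 is at chr1:82291390-82291689 and Irs2 at chr8:11008880-11009179, all on the minus strand. The RefSeq start of Irs2 lies upstream of the gene span given below, which is that of GENCODE.
Inppl1 window 1: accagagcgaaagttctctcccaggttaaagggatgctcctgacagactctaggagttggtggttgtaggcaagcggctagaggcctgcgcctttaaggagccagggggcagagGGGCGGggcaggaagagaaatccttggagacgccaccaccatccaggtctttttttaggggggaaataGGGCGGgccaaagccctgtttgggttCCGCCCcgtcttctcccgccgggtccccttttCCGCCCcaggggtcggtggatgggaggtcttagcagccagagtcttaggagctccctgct
Inppl1 window 2: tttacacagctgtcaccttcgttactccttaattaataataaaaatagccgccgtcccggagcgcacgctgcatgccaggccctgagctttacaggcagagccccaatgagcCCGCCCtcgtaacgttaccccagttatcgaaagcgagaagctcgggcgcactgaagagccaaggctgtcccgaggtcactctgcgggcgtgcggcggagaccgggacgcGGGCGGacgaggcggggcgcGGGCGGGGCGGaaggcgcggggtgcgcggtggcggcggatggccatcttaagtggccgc
Irs1: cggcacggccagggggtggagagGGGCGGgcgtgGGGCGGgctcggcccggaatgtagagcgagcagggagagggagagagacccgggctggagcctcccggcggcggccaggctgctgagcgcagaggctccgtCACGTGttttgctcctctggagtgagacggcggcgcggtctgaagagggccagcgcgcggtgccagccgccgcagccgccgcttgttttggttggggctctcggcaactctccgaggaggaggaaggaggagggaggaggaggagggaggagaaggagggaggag
Irs2: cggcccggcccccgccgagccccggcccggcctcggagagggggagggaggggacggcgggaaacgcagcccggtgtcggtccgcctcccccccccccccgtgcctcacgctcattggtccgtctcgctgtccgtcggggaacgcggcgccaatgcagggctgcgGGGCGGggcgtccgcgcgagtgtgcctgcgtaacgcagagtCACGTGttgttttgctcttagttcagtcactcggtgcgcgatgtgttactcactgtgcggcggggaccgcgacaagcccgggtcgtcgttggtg
Each Inppl1 window held 4 GC boxes and no E-box, with a GC content of 60.3% and 64.7%. The Irs1 window held 2 GC boxes and an E-box that starts 115 bases before the transcription start, and the Irs2 window held 1 GC box and an E-box 44 bases before the start. Irs2 also had the letters CCAAT 2 times, which Irs1 lacked. Among 32851 mouse promoter windows of the same length, 7.15% held CACGTG, 35.7% held GGGCGG and 37.4% held CCAAT on either strand, and the median GC content was 52.7%. No member window other than those of Irs1 and Irs2 held CACGTG, and the letters TGTTTAC, found in 3.65% of all windows, occurred in 1 member window, the outer of 2 for Akt1. A match or its absence in these windows says nothing of factor binding.

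The untreated cells of the 4 types differed in the levels of the members and in which member had the highest. Compared per kb of annotated exon in control libraries, Akt2 had the highest level of the 9 in adipocytes (43.0 CPM per kb) with Akt1 next to it (35.8), Akt1 led in macrophages (70.3) and in hepatocytes (43.4), and Inppl1 led in myotubes (176), where it stood above Akt1 (71.9) and Akt2 (35.2). Grb14 was the lowest member in adipocytes (1.45 CPM per kb) and in macrophages (0.532), Irs2 in myotubes (1.48) and Igf1r in hepatocytes (0.109). Neighbouring members in these orders often lay close, as with Inppl1 (20.1 ± 1.06 SD, n = 3) and Pik3r1 (19.0 ± 3.23) in adipocytes or Insr (13.9 ± 1.90) and Grb14 (13.1 ± 0.600) in hepatocytes, which overlap within their SD. The same was true of Irs1 and Irs2 in adipocytes (10.9 ± 0.901 and 10.1 ± 1.05), Igf1r and Insr in macrophages (3.29 ± 0.173 and 3.02 ± 0.166) and Insr and Pik3r1 in myotubes (6.70 ± 0.467 and 6.05 ± 0.307). With the length of the longest transcript in place of the union of exons, 9 of the 36 ranks changed, including the order of Inppl1 and Pik3r1 in adipocytes, Grb14 moved up to the third rank in hepatocytes, and Irs1 (1.01) in place of Grb14 (1.37) was lowest in macrophages.

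**Figure D1:**
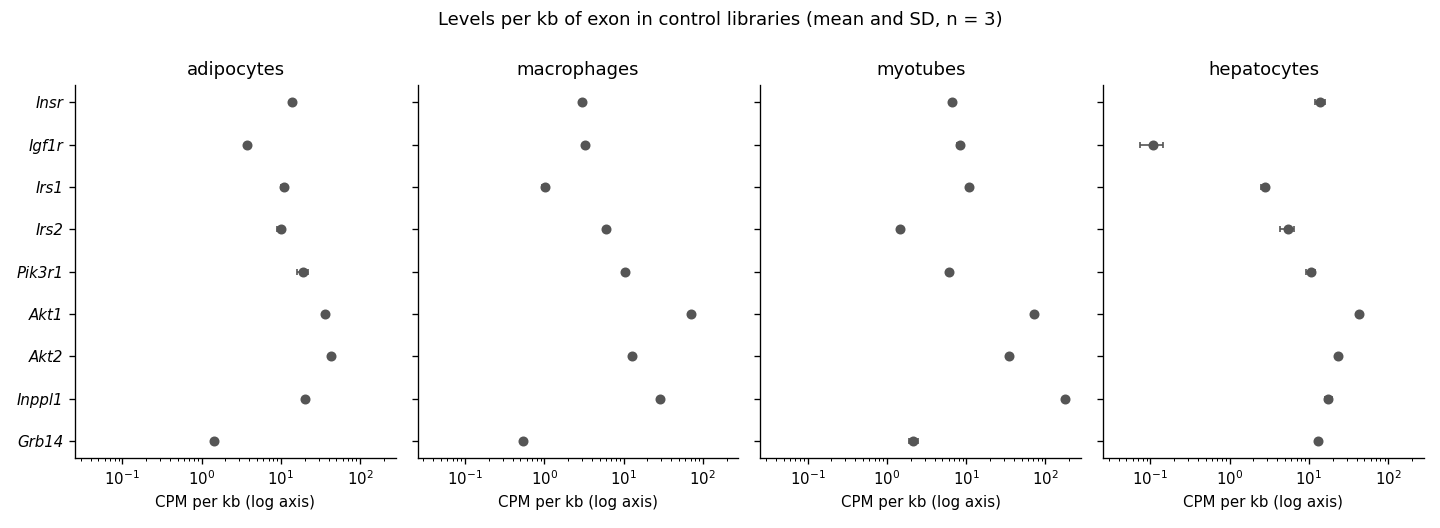
Control levels of the 9 members in each cell type, as CPM per kb of exon on a log axis (points, mean of 3 libraries; bars, SD). Inppl1 stands highest in myotubes at 176 CPM per kb and Igf1r lowest in hepatocytes at 0.109 CPM per kb.

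For the same gene between cell types, 49 of 54 pairwise differences of control levels were significant (edgeR quasi-likelihood F test, Benjamini-Hochberg adjusted p below 0.05, 81.3% of such pairs over all genes). Inppl1 had a control mean of 1128 ± 52.9 CPM (SD, n = 3) in myotubes and of 187 ± 1.34 in macrophages, 129 ± 6.81 in adipocytes and 113 ± 11.0 in hepatocytes, the last pair no longer differing when replicate 1 of either was left out. Igf1r, the receptor of the related growth factor IGF1, ranged from 141 ± 10.7 CPM in myotubes to 1.84 ± 0.598 CPM in hepatocytes, where 24 to 41 counts per library stood behind it, and Grb14 ranged from 93.8 ± 4.31 CPM in hepatocytes to 3.82 ± 0.136 CPM in macrophages. Irs1 was at 99.4 ± 8.24 CPM in adipocytes and 99.2 ± 4.78 CPM in myotubes, which did not differ (difference of log2 levels 0.0025, 95% interval -0.20 to 0.21), and was lower in hepatocytes (25.3 ± 2.48) and macrophages (9.27 ± 0.736). Irs2 was highest in adipocytes (63.6 ± 6.62 CPM) and lowest in myotubes (9.34 ± 0.131 CPM). The other 4 pairs that did not pass were Insr in adipocytes and hepatocytes (188 and 191 CPM), Irs2 in macrophages and hepatocytes (38.1 and 34.1), Pik3r1 in macrophages and hepatocytes (105 and 107) and Akt1 in macrophages and myotubes (288 and 295). With library totals alone in place of TMM scaling, the difference of Insr between adipocytes and hepatocytes became significant with adipocytes higher, that of Irs2 between macrophages and hepatocytes passed (0.41, adjusted p = 0.00116), as it did without hepatocyte control 2 (0.32, adjusted p = 0.0121), and that of Akt1 between adipocytes and hepatocytes was lost (-0.04, adjusted p = 0.549). The difference of Igf1r between adipocytes and macrophages was lost without adipocyte control 1 or macrophage controls 2 or 3 (0.17 to 0.19, adjusted p = 0.0508 to 0.0841).

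Butyrate changed most members, and the direction depended on the gene. Inppl1, Akt1 and Akt2 fell and Igf1r rose in all 4 cell types. Irs2 rose in 3 cell types, Grb14 rose in adipocytes and myotubes and fell in hepatocytes, and Insr fell in adipocytes and rose in macrophages. In total 29 of 36 combinations of member and cell type reached a Benjamini-Hochberg adjusted p below 0.05 in the edgeR fit, where 64.0% of all gene and cell type combinations did. In 31 of the 36 the 3 butyrate libraries did not overlap the 3 controls, as in 68.2% of such combinations over all genes. By cell type, 9 of 9 members were called in adipocytes (61.0% of all genes), 5 of 9 in macrophages (65.0%), 7 of 9 in myotubes (66.5%) and 8 of 9 in hepatocytes (63.5%). The numbers raised were 4, 2, 4 and 3 in the same order, beside 30.7%, 31.9%, 33.1% and 31.0% of all genes, and the numbers lowered were 5, 3, 3 and 5, beside 30.3%, 33.2%, 33.4% and 32.4%. Shares of this order were common across the transcriptome under butyrate, and the members were not tested against other genes. A single member rose in all 4 cell types, as did 12.5% of all genes, and 3 fell in all 4, as did 12.7%. An alternative added after the data were seen left out the 3 mixed butyrate libraries named above. These did not have the highest sums of other markers, since adipocyte butyrate libraries held 325 to 351 CPM of macrophage markers. That fit kept a single butyrate library of myotubes, so no counts of called members are given for it.

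**Figure D2:**
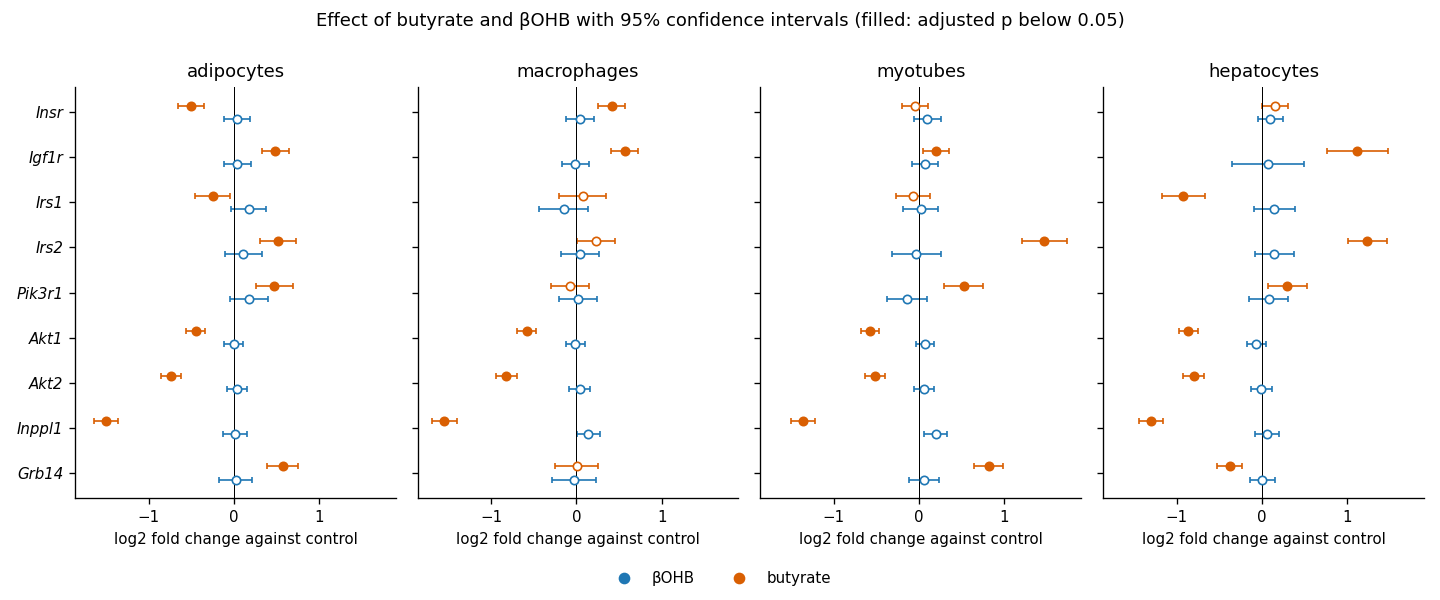
Log2 fold changes of the 9 members under butyrate and βOHB in each cell type (points, edgeR estimate; bars, 95% interval; filled points passed the test). Butyrate estimates run from -1.55 for Inppl1 in macrophages to 1.47 for Irs2 in myotubes, and no βOHB estimate passed.

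**Figure D3:**
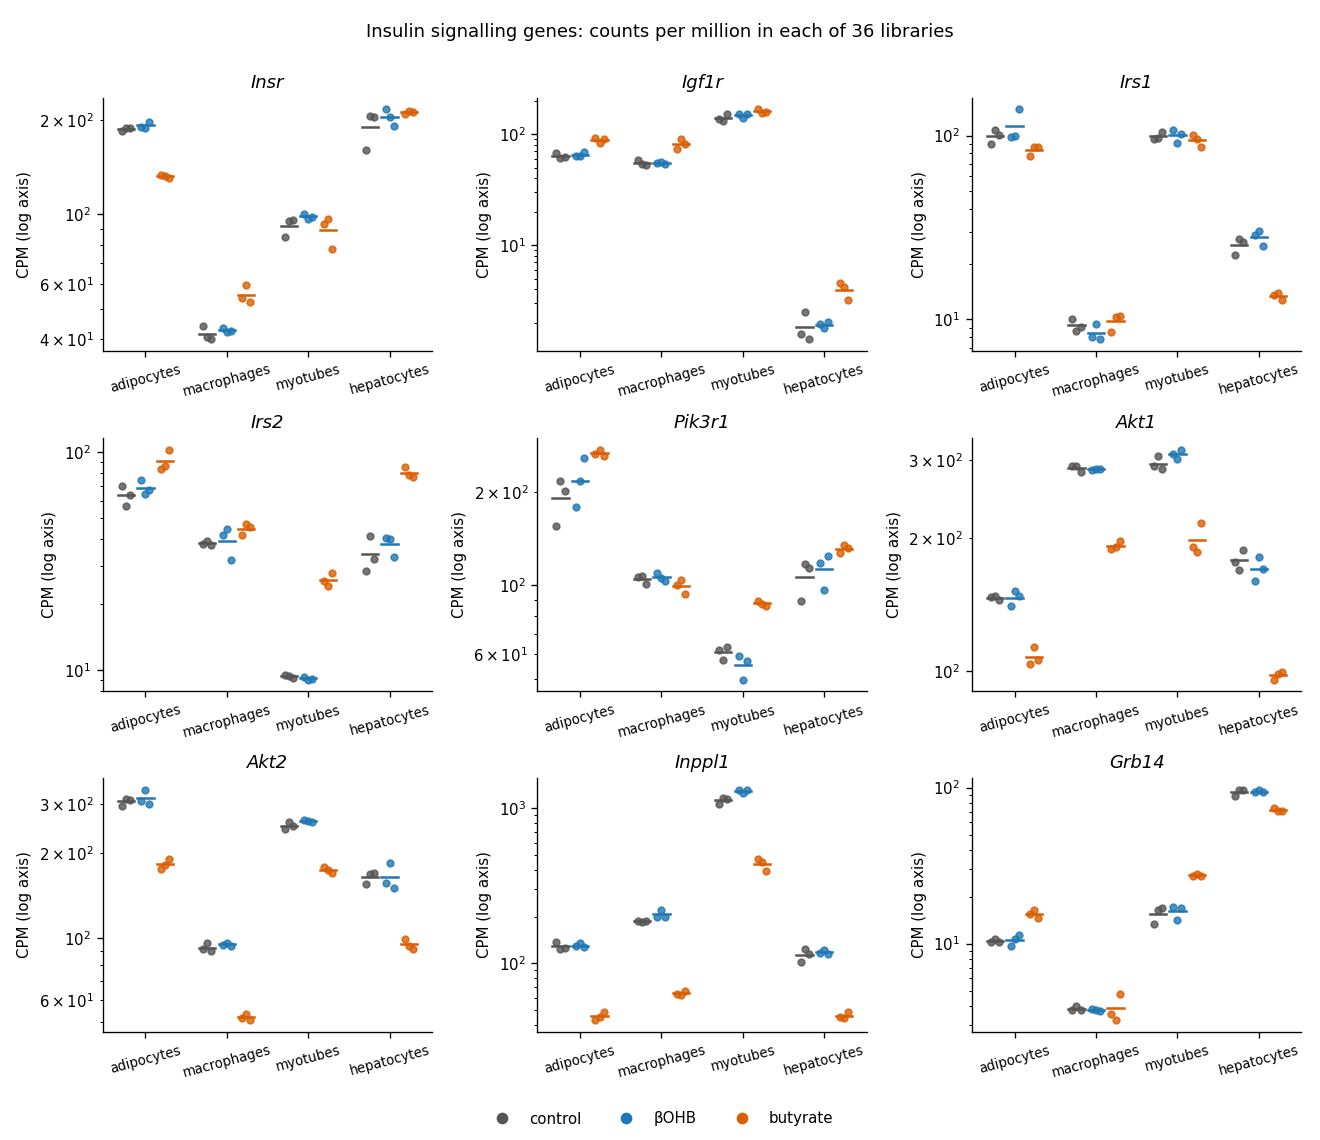
CPM of the 9 members in every library, by cell type and treatment, on log axes (points, libraries; lines, group means). Inppl1 libraries under butyrate lie below the control and βOHB libraries of each cell type.

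Among the receptors, the insulin receptor gene Insr (chr8:3122061-3279617, minus strand) moved in opposite directions in adipocytes and macrophages. In adipocytes the control libraries were at 185, 189 and 188 CPM and the butyrate libraries at 133.4, 132.7 and 130.7 CPM, with every butyrate library below every control library. The change was -0.50 ± 0.07 on the log2 scale (SE, edgeR, Benjamini-Hochberg adjusted p = 6.53e-07). In macrophages Insr went the other way, from 44.2, 40.6 and 39.9 CPM to 54.1, 59.5 and 52.6 CPM, again without overlap (0.41 ± 0.08, adjusted p = 3e-05 in the same edgeR fit). Myotube libraries overlapped, at 84.8, 95.4 and 96.3 CPM in controls and 93.4, 96.6 and 77.8 CPM under butyrate, and the change did not pass (-0.05 ± 0.08). In hepatocytes the values were 160.6, 206.8 and 204.7 CPM in controls and 209.6, 213.9 and 213.0 CPM under butyrate. These groups did not overlap, yet the change of 0.15 ± 0.07 missed the threshold (adjusted p = 0.0702, edgeR), and it passed in 7 of 16 alternative settings, among them the fits without control replicate 2 or 3 and that without the mixed butyrate libraries of myotubes and macrophages (0.19, adjusted p = 0.015). Without control replicate 1 the change was 0.04 (adjusted p = 0.601). Control replicate 1 was the lowest of the 3 hepatocyte controls for 7 of the 9 members. The 4 butyrate effects on Insr differed between cell types (adjusted p = 1.01e-07, edgeR, F test over the 4 effects), by -0.92 ± 0.11 for adipocytes minus macrophages.

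Igf1r (chr7:67952827-68233668, plus strand), whose product is a close relative of the insulin receptor, rose in all 4 cell types. Adipocyte libraries went from 67.3, 61.3 and 62.6 CPM in controls to 92.8, 84.0 and 91.2 CPM under butyrate, and macrophage libraries from 58.5, 54.3 and 52.9 CPM to 73.4, 90.3 and 81.9 CPM, both without overlap. The log2 changes were 0.49 ± 0.08 and 0.57 ± 0.08 (edgeR, Benjamini-Hochberg adjusted p = 2.38e-06 and 1.71e-07). Hepatocytes, which had the fewest Igf1r reads, showed the greatest relative rise, from 1.57, 2.52 and 1.42 CPM to 4.56, 4.16 and 3.18 CPM, or 1.12 ± 0.18 (adjusted p = 1.95e-06, edgeR), on 53 to 86 counts per butyrate library. In myotubes the controls were at 137, 132 and 153 CPM and the butyrate libraries at 169, 156 and 159.6 CPM, close together but not overlapping. That change, 0.20 ± 0.07 (adjusted p = 0.0216, edgeR), was lost without control replicate 1 (0.18, adjusted p = 0.0654), control replicate 2 (0.15, adjusted p = 0.113) or butyrate replicate 1 (0.16, adjusted p = 0.085), and when no low-count filter was applied. The effect in myotubes minus that in hepatocytes was -0.93 ± 0.19 (adjusted p = 0.000204, edgeR).

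The adaptor genes Irs1 and Irs2, whose products link the receptors to phosphoinositide 3-kinase, moved in opposite directions in hepatocytes and, with a call for Irs1 that passed in 9 of 16 alternative settings, in adipocytes. Irs2 (chr8:10984681-11008458, minus strand) rose from 9.45, 9.38 and 9.19 CPM in control myotubes to 25.5, 24.4 and 27.9 CPM under butyrate, and from 28.6, 41.3 and 32.4 CPM in control hepatocytes to 85.4, 78.7 and 76.9 CPM. Every butyrate library stood far above the controls in both. The log2 changes were 1.47 ± 0.13 and 1.24 ± 0.11 (edgeR, Benjamini-Hochberg adjusted p = 2.02e-11 and 3.28e-11), or 2.77-fold and 2.36-fold. In adipocytes Irs2 rose by 0.52 ± 0.10, from 70.2, 56.9 and 63.6 CPM to 84.2, 86.6 and 103 CPM. In macrophages the controls were at 37.9, 39.2 and 37.3 CPM and the butyrate libraries at 41.5, 46.7 and 45.5 CPM, which lie close without overlap, and the change of 0.23 ± 0.11 missed the threshold (adjusted p = 0.0689, edgeR) but passed without butyrate replicate 1 (0.30, adjusted p = 0.0335), with no filter on low counts (0.21, adjusted p = 0.0374) and with macrophage libraries fitted by themselves (0.26, adjusted p = 0.0106). The effect in macrophages minus that in myotubes was -1.24 ± 0.17, and minus that in hepatocytes -1.01 ± 0.15 (adjusted p = 4.47e-07 and 3.17e-06, edgeR).

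Irs1 (chr1:82233101-82291416, minus strand) fell in hepatocytes, from 22.5, 27.2 and 26.3 CPM to 13.5, 13.9 and 12.7 CPM under butyrate. All 3 butyrate libraries were below all controls, and the log2 change was -0.92 ± 0.13 (edgeR, Benjamini-Hochberg adjusted p = 1.49e-07). In adipocytes the controls were at 90.4, 107 and 101 CPM and the butyrate libraries at 77.7, 86.4 and 86.9 CPM, near each other but apart. This change, -0.25 ± 0.10 (adjusted p = 0.0332, edgeR), passed in 9 of 16 alternative settings and was lost without control replicate 2 (-0.20) or 3 (-0.23), butyrate replicate 1 (-0.20) or 2 (-0.26), and under DESeq2 (-0.23). Irs1 overlapped between groups in macrophages (0.07 ± 0.14) and myotubes (-0.07 ± 0.10) and did not pass there. The decrease in hepatocytes differed from the values in adipocytes, macrophages and myotubes by 0.67 ± 0.16, 0.99 ± 0.18 and 0.85 ± 0.16 (adjusted p = 0.00104, 5.21e-05 and 5.79e-05, edgeR). A gene on the opposite strand, Gm9747, shares 2822 bp with Irs1 and was at up to 7.11 CPM, and the counting was not stated to use strand, so their reads cannot be told apart.

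Pik3r1 (chr13:101680563-101768217, minus strand) encodes the p85α regulatory subunit of phosphoinositide 3-kinase. It rose in myotubes, from 62.0, 57.6 and 63.5 CPM to 89.3, 87.2 and 86.1 CPM, and in adipocytes, from 155, 218 and 202 CPM to 265.7, 274.3 and 260.6 CPM. The butyrate libraries were above all controls in both, although control replicate 1 of adipocytes was low. The log2 changes were 0.52 ± 0.11 and 0.48 ± 0.11 (edgeR, Benjamini-Hochberg adjusted p = 0.000172 and 0.000315). In hepatocytes Pik3r1 went from 89.2, 117 and 114 CPM to 127, 135 and 132 CPM (0.30 ± 0.11, adjusted p = 0.0199, edgeR), a call lost without control replicate 1 (0.19, adjusted p = 0.173) or butyrate replicate 2 (0.28, adjusted p = 0.0576). Macrophage libraries overlapped, at 106, 107 and 101 CPM in controls and 100.1, 104 and 93.9 CPM under butyrate (-0.08 ± 0.11, not significant). The effect in adipocytes exceeded that in macrophages by 0.55 ± 0.15, and the effect in macrophages minus that in myotubes was -0.60 ± 0.16 (adjusted p = 0.00523 and 0.00266, edgeR).

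Akt1 (chr12:112653821-112674884, minus strand) and Akt2 (chr7:27591552-27640826, plus strand) encode the serine/threonine kinases that carry the signal to metabolism and growth, and Akt2 is the form best known for glucose handling. Both fell in all 4 cell types, with no overlap between butyrate and control libraries in any of them. For Akt2, adipocyte libraries went from 295, 313 and 311 CPM to 177, 182 and 191 CPM, macrophage libraries from 91.6, 95.7 and 89.5 CPM to 51.9, 53.5 and 51.0 CPM, myotube libraries from 244, 258 and 250.1 CPM to 179.5, 174 and 170.3 CPM and hepatocyte libraries from 156, 168 and 170.4 CPM to 99.2, 93.9 and 91.4 CPM. These were log2 changes of -0.74 ± 0.06, -0.82 ± 0.06, -0.52 ± 0.06 and -0.80 ± 0.06 (edgeR, Benjamini-Hochberg adjusted p at most 3.29e-09). The decrease in myotubes was smaller than in each of the other cell types, with differences of -0.22 ± 0.08 for adipocytes minus myotubes, -0.30 ± 0.08 for macrophages minus myotubes and 0.28 ± 0.08 for myotubes minus hepatocytes (adjusted p = 0.0333, 0.00374 and 0.00598, edgeR). With no filter on low counts none of the 3 passed (adjusted p = 0.296, 0.112 and 0.243), and the difference from adipocytes was also lost without adipocyte controls 2 or 3, adipocyte butyrate 1 or 2, myotube controls 1 or 3 or myotube butyrate 1 (adjusted p = 0.055 to 0.0858).

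For Akt1, hepatocyte libraries went from 177, 169 and 188 CPM to 95.7, 98.7 and 99.3 CPM, which at -0.86 ± 0.06 was the greatest decrease of this gene (edgeR, Benjamini-Hochberg adjusted p = 1.68e-14). Macrophage libraries went from 291, 290.7 and 282 CPM to 189, 191 and 197 CPM, myotube libraries from 291, 306 and 287 CPM to 191, 186 and 217 CPM, and adipocyte libraries from 147.5, 147.8 and 144.8 CPM to 104, 114 and 106 CPM. The changes there were -0.58 ± 0.05, -0.58 ± 0.05 and -0.45 ± 0.05. All 3 were smaller than in hepatocytes, by 0.28 ± 0.08, 0.29 ± 0.08 and 0.42 ± 0.08 (adjusted p = 0.00357, 0.00254 and 5.98e-05, edgeR), although the first pair of these did not pass with no filter (adjusted p = 0.108 and 0.217).

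Inppl1 (chr7:101822632-101838229, minus strand), whose product SHIP2 removes the 5-phosphate of PIP3, had the greatest absolute log2 change of any member in adipocytes and macrophages and lay within the SE of Irs2 from the absolute change of Irs2 in myotubes and hepatocytes. Adipocyte libraries fell from 136, 124 and 125 CPM to 42.9, 45.1 and 48.2 CPM, and macrophage libraries from 188, 186 and 188 CPM to 63.5, 62.7 and 66.0 CPM. Myotube libraries, which started highest, fell from 1067, 1163 and 1154 CPM to 473, 449 and 395 CPM, and hepatocyte libraries from 101, 123 and 114 CPM to 44.7, 44.5 and 48.5 CPM. In each cell type the butyrate libraries were at less than the lowest control by a wide margin, and even the lowest butyrate library of myotubes remained above every control library of the other cell types. The log2 changes were -1.50 ± 0.07, -1.55 ± 0.07, -1.36 ± 0.07 and -1.30 ± 0.07 in adipocytes, macrophages, myotubes and hepatocytes (edgeR, Benjamini-Hochberg adjusted p at most 4.08e-16), or 2.83-fold, 2.92-fold, 2.57-fold and 2.46-fold lower. Lower log2 changes than these were found for 3.42%, 3.65%, 4.72% and 8.62% of the genes tested. Inppl1 was also among the genes the study picked from these libraries for a follow-up of butyrate regulation, so its size here is no independent selection.

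The decrease of Inppl1 varied little between cell types. It was the member whose 4 butyrate effects did not pass the test of a difference (adjusted p = 0.068, edgeR), and 1 of its 6 pairs passed, macrophages against hepatocytes, with a difference of -0.25 ± 0.10 (adjusted p = 0.038). That call was lost with library totals alone (-0.10, adjusted p = 0.419), with no filter (adjusted p = 0.109), with the replicate block (adjusted p = 0.0571), and without any of macrophage controls 1, 2 or 3, macrophage butyrate 1 or 2, hepatocyte controls 1 or 3 or hepatocyte butyrate 3 (-0.26 to -0.18, adjusted p = 0.051 to 0.142). The test over the 4 effects passed under DESeq2 (adjusted p = 0.0345), with the filterByExpr filter (adjusted p = 0.0435) and without butyrate replicate 3 of myotubes (adjusted p = 0.0153). Without the 3 mixed butyrate libraries, with 1 myotube butyrate library left, the difference of macrophages minus myotubes was -0.32. Gm10602, antisense to Inppl1 over 1727 bp, was at most at 2.80 CPM, and Phox2a, which overlaps it by 95 bp, at most at 1.05 CPM. The related phosphatase gene Inpp5d (SHIP1), which is typical of blood cells, fell in macrophages as well, from 326.5, 326.6 and 320.3 CPM to 121, 127 and 119 CPM (-1.41 ± 0.17). It also fell in adipocytes (-0.83 ± 0.26) and in myotubes (-3.12 ± 0.35), from control means of 8.61 and 8.20 CPM, and did not pass in hepatocytes (-1.17 ± 0.75). Macrophage markers were lower under butyrate in myotubes too, and their part was not tested.

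Grb14 (chr2:64912476-65024987, minus strand), whose product binds the activated insulin receptor and blocks its kinase, moved in opposite directions in cell types that express it at very different levels. In myotubes the controls were at 13.4, 16.5 and 16.8 CPM and the butyrate libraries at 27.2, 28.1 and 26.9 CPM, and in adipocytes 10.3, 10.8 and 10.2 CPM became 15.4, 16.5 and 14.5 CPM. Butyrate libraries were above all controls in both. The log2 changes were 0.82 ± 0.08 and 0.57 ± 0.09 (edgeR, Benjamini-Hochberg adjusted p = 6.17e-10 and 1.95e-06). In hepatocytes, where Grb14 was most abundant, it fell from 88.9, 96.0 and 96.6 CPM to 74.3, 71.3 and 71.0 CPM, without overlap (-0.38 ± 0.07, adjusted p = 4.48e-05, edgeR). Macrophage libraries were near 4 CPM in both groups, at 3.73, 3.98 and 3.76 CPM and 3.56, 3.24 and 4.74 CPM, on 79 to 88 and 82 to 111 counts per library, and did not differ significantly (0.01 ± 0.12). The effects in myotubes and hepatocytes differed by 1.19 ± 0.11 (adjusted p = 3.69e-10, edgeR). Grb10, a close relative with the same inhibitory role, fell in adipocytes (-0.29 ± 0.10), macrophages (-0.95 ± 0.11) and myotubes (-0.46 ± 0.10). Its hepatocyte libraries were at 9.22, 10.4 and 9.82 CPM in controls and at 7.84, 9.12 and 7.15 CPM under butyrate, close together without overlap.

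Over the 9 members, 8 had butyrate effects that differed between cell types (74.5% of all genes did), and 31 of 54 pairwise differences passed (41.9% over all genes). Insr, Igf1r and Grb14 had 5 of 6 pairs each, Irs2 4, Irs1, Akt1 and Akt2 3, Pik3r1 2 and Inppl1 1. The total was 24 to 32 under the alternatives and 27 to 33 with a library left out. Calls over all genes moved too, for example for macrophages minus hepatocytes from 6812 of 15340 to 6869 under limma-voom and 6992 with library totals alone. Shares over all genes are not given for each setting, so these totals do not compare the members with other genes. Insr in macrophages against hepatocytes (0.26, adjusted p = 0.0492) was lost under limma-voom, all 3 other filters and the replicate block, and without macrophage controls 2 or 3, macrophage butyrate 1 or 2, hepatocyte controls 2 or 3 or any hepatocyte butyrate library (0.19 to 0.27, adjusted p = 0.0651 to 0.184). Igf1r in adipocytes against myotubes was lost with library totals alone and without adipocyte controls 2 or 3, adipocyte butyrate 1 or 3, myotube control 3 or myotube butyrate 2 (adjusted p = 0.0651 to 0.112). Igf1r in hepatocytes was lost under limma-voom against adipocytes (adjusted p = 0.0555) and macrophages (adjusted p = 0.0886), against both without hepatocyte control 3 (adjusted p = 0.0733 and 0.138), and against macrophages with library totals alone or without hepatocyte control 1 or hepatocyte butyrate 1 or 2. Grb14 in macrophages against hepatocytes was lost under limma-voom, with no filter, and without macrophage controls 1 or 3, macrophage butyrate 3 (0.20, adjusted p = 0.302) or hepatocyte controls 2 or 3. Pik3r1 in macrophages against hepatocytes (adjusted p = 0.0518) passed in 9 alternative fits, DESeq2 and limma-voom among them. The pairs of Igf1r that set myotubes against adipocytes and macrophages no longer passed without the mixed butyrate libraries (0.20 and 0.30), nor did the pair of Grb14 between macrophages and hepatocytes (0.20). For Inppl1, 3 further pairs passed without those libraries, adipocytes against myotubes (-0.27), adipocytes against hepatocytes (-0.23) and macrophages against myotubes (-0.32). The myotube pairs among these losses and gains rest on 1 butyrate library of myotubes.

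The ratio of 2 related members within a library, a measure in which the scaling of libraries largely cancels, is given as values for each cell type. The Irs2 to Irs1 ratio per kb, on the log2 scale, was -2.80, -2.82 and -2.96 in control myotubes and -1.45, -1.44 and -1.10 under butyrate, and 0.88, 1.13 and 0.83 in control hepatocytes and 3.18, 3.03 and 3.12 under butyrate. Irs2 thus stood at 8.63 times the level of Irs1 per kb in butyrate-treated hepatocytes, against 1.93 times in controls, while in myotubes Irs1 stayed above Irs2, by 2.51-fold instead of 7.27-fold. In adipocytes the mean ratio was -0.11 ± 0.27 (SD, n = 3) in controls and 0.65 ± 0.12 under butyrate, and in macrophages the libraries overlapped, with means of 2.57 and 2.72. The Igf1r to Insr ratio was -1.85 ± 0.09 in controls and -0.86 ± 0.08 under butyrate in adipocytes, and -6.95 ± 0.39 and -6.01 ± 0.27 in hepatocytes, without overlap. Akt2 stood slightly above Akt1 per kb in control adipocytes (0.26 ± 0.06) and level with it under butyrate (-0.03 ± 0.08), and was below it in the other cell types, most in macrophages (-2.44 ± 0.03 in controls and -2.68 ± 0.06 under butyrate). Groups did not overlap in 8 of 12 butyrate comparisons and in 1 of 12 βOHB comparisons. An exact two-sided permutation test of 3 against 3 libraries cannot go below p = 0.1, and over the 24 tests the lowest Benjamini-Hochberg adjusted value was 0.267, so no ratio is significant by this test.

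**Figure D4:**
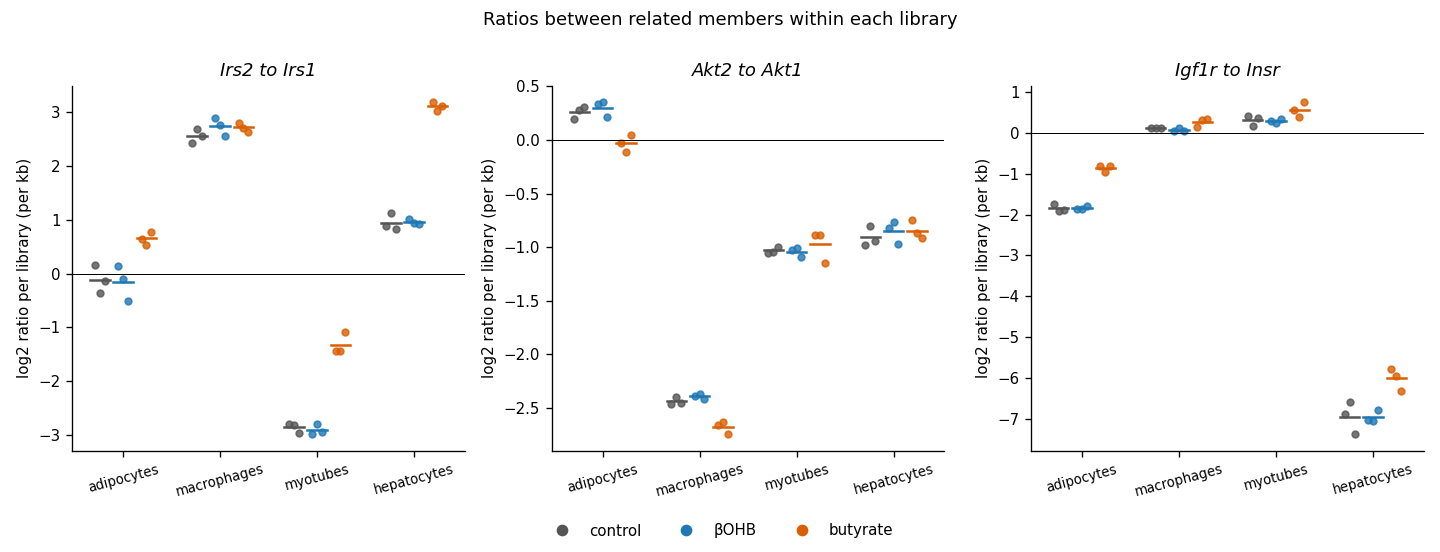
Log2 ratios per kb between related members in every library (points; lines, group means) for Irs2 to Irs1, Akt2 to Akt1 and Igf1r to Insr. The Irs2 to Irs1 ratio of the hepatocyte butyrate libraries lies between 3.03 and 3.18, above the controls at 0.83 to 1.13.

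βOHB left the members near their control levels. None of the 36 combinations of member and cell type was significant after Benjamini-Hochberg adjustment in the edgeR fit (0.73% of all gene and cell type combinations), where 0.00652% of all genes were called in adipocytes, 0.0% in macrophages, 2.91% in myotubes and 0.00652% in hepatocytes. At an unadjusted p below 0.05 the number of members was 0, 1, 1 and 0 in the same order, beside 1097, 358, 2104 and 845 of all genes. No member was called by limma-voom or DESeq2 either. Groups did not overlap in 5 of the 36 combinations, beside 13.4% of all gene and cell type combinations. Both members below the unadjusted threshold were Inppl1, with higher values under βOHB. In myotubes its controls were at 1067, 1163 and 1154 CPM and the βOHB libraries at 1305, 1259 and 1315 CPM, apart from each other by 0.20 ± 0.07 (95% interval 0.06 to 0.33, adjusted p = 0.12, edgeR). In macrophages 188, 186 and 188 CPM stood against 200.0, 221 and 198 CPM (0.14 ± 0.07, adjusted p = 1.0, edgeR). These values lie on the side of zero opposite to the butyrate change of the same gene, which shares the control libraries. The widest interval was that of Igf1r in hepatocytes, -0.35 to 0.49, and that of Akt1 in adipocytes, -0.11 to 0.11, was among the narrowest. The βOHB effects did not differ between cell types for any of the 9 members (0.978% of all genes).

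At the same dose and time, the compounds could be compared directly. Butyrate and βOHB libraries differed significantly for 27 of 36 combinations (63.4% over all genes), with 9 members called in adipocytes (59.5%), 5 in macrophages (64.7%), 6 in myotubes (66.0%) and 7 in hepatocytes (63.5%). For Inppl1 the log2 differences of butyrate minus βOHB were -1.52 ± 0.07, -1.69 ± 0.07, -1.56 ± 0.07 and -1.36 ± 0.07 in adipocytes, macrophages, myotubes and hepatocytes (edgeR, Benjamini-Hochberg adjusted p at most 1.32e-16). Irs2 was higher by 1.50 ± 0.13 in myotubes and 1.09 ± 0.11 in hepatocytes, and the difference for Irs1 in hepatocytes was -1.07 ± 0.12. Called against control but not against βOHB were Igf1r in myotubes (0.12 ± 0.07, adjusted p = 0.145) and Pik3r1 in hepatocytes (0.22 ± 0.11, adjusted p = 0.0915). The former passed under DESeq2 (adjusted p = 0.0208), RLE factors (adjusted p = 0.0361), library totals alone (adjusted p = 0.000295), with myotube libraries fitted by themselves (adjusted p = 0.0315) and without the mixed libraries (adjusted p = 0.0481). The latter passed with library totals alone (adjusted p = 0.0275), with no filter (adjusted p = 0.018) and without βOHB replicate 3 (adjusted p = 0.0428). The difference of Pik3r1 in adipocytes was lost without βOHB replicate 1 (0.17, adjusted p = 0.19) and with adipocyte libraries fitted by themselves (0.30, adjusted p = 0.068).

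A wider list of 102 genes of the pathway, from ligands to the Ras-MAPK arm and without the 9 members, moved in both directions under butyrate. Of its 98 genes that passed the filter, 31 rose and 36 fell under butyrate in adipocytes, 28 and 41 in macrophages, 35 and 33 in myotubes, and 39 and 35 in hepatocytes, so that 68.4%, 70.4%, 69.4% and 75.5% were called, beside 61.0%, 65.0%, 66.5% and 63.5% of all genes. The median log2 changes of the list were 0.00, -0.07, 0.02 and 0.02, beside medians of 0.0, 0.0, 0.0 and -0.01 over all genes. In all 4 cell types 10 genes rose and 14 fell, where 12.5% and 12.7% of all genes did. By role, where 30.7% to 33.1% of all genes rose and 30.3% to 33.4% fell in a cell type, 3, 3, 5 and 5 of 18 inhibitors rose and 9, 7, 6 and 9 fell in adipocytes, macrophages, myotubes and hepatocytes, and of 20 kinases 6, 6, 5 and 9 rose and 6, 10, 7 and 7 fell. Of 11 other phosphoinositide 3-kinase subunits 5, 4, 4 and 5 rose and 2, 5, 3 and 1 fell, and of 11 other adaptors 3, 2, 4 and 3 rose and 4, 6, 4 and 5 fell. Of 16 effectors 5, 5, 9 and 9 rose and 6, 5, 4 and 5 fell, with median log2 changes of -0.01, 0.0, 0.71 and 0.46. Of 8 phosphoinositide phosphatases 5, 4, 4 and 3 rose and 2, 3, 3 and 1 fell, and of 11 genes of the Ras-MAPK arm 3, 3, 3 and 4 rose and 6, 4, 5 and 6 fell. Insulin itself (Ins1, Ins2), Insrr and Irs4 were at most at 0.529 CPM and were not tested.

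The genes that moved one way everywhere came from most roles. The ligand gene Igf1 fell by 1.16, 1.75, 0.55 and 0.70 on the log2 scale in adipocytes, macrophages, myotubes and hepatocytes. Its control mean was 712 CPM in macrophages and 9.12 CPM in myotubes. The macrophage markers that were lower under butyrate in myotubes are given above, as are those of hepatocytes, where Cd14 fell and Cd68 did not. Their part in these decreases was not tested. Pik3r2, the p85β regulatory subunit, rose by 1.15, 1.15, 0.83 and 1.00, and Pdpk1, which encodes the kinase that phosphorylates Akt, rose by 0.74, 0.64, 0.44 and 1.31. Mlst8, a subunit of both mTOR complexes, fell by 1.70, 1.41, 1.49 and 2.18. Among adaptors Gab2 fell by 0.24, 1.59, 0.90 and 0.52, and among inhibitors Socs2 fell by 0.67, 0.78, 0.70 and 0.88. Of 8 phosphoinositide phosphatase genes besides Inppl1, Inpp4a rose by 1.12, 0.71, 1.25 and 1.72 and Inpp5e fell by 0.49, 0.66, 0.55 and 0.88. Tbc1d1, a Rab GTPase-activating protein that Akt phosphorylates, rose by 0.78, 1.09, 0.94 and 0.46, and Eif4ebp1, a repressor of translation, fell in all 4 cell types, by 0.38, 0.24, 0.30 and 0.91. All these changes passed in the edgeR fit, with Benjamini-Hochberg adjusted p at most 0.00527.

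**Figure D5:**
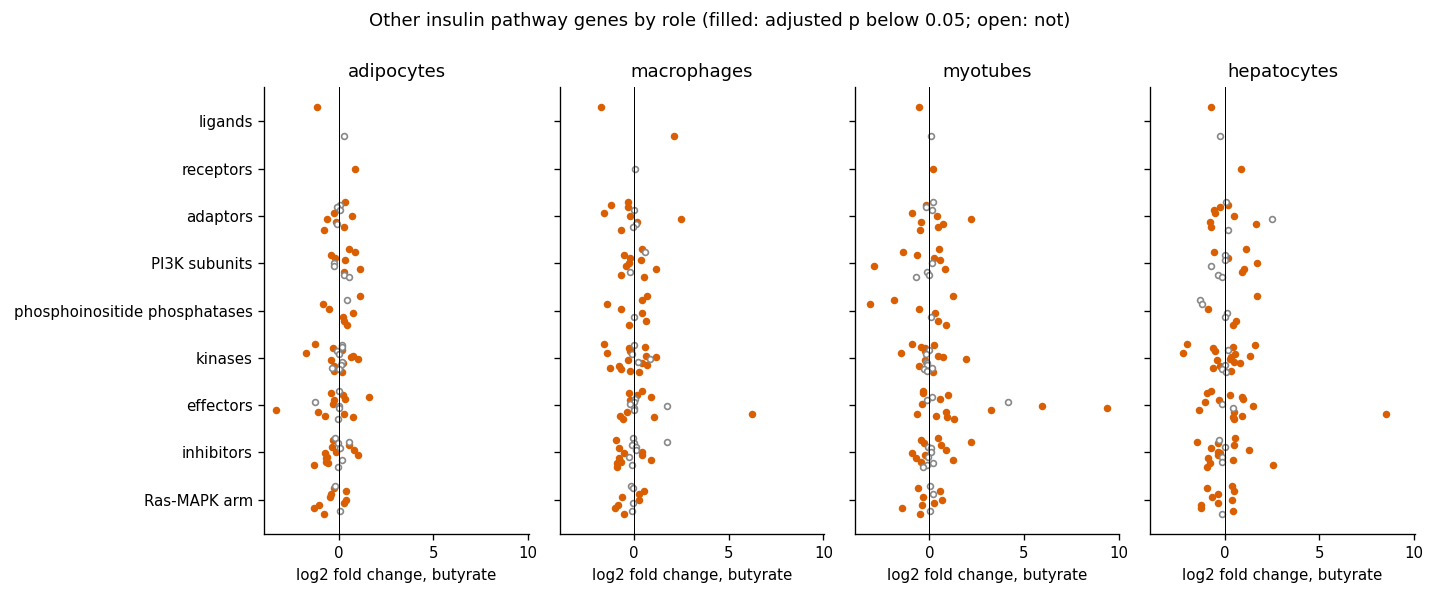
Log2 fold changes under butyrate of the 98 other pathway genes tested (points, 1 gene each), in rows by role and panels by cell type, filled where the adjusted p was below 0.05. Points above 5 are Slc2a4, Igfbp1 and Gys2 in cells whose controls held at most 2 counts of them, where the fitted value is no measure of size. Over all roles 31, 28, 35 and 39 genes rose and 36, 41, 33 and 35 fell in adipocytes, macrophages, myotubes and hepatocytes.

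Under βOHB no gene of the wider list was called in adipocytes, macrophages or hepatocytes, and 4 of 98 (4.08%, beside 2.91% of all genes) were called in myotubes. The adaptor Gab1 rose by 0.30 ± 0.08 (edgeR, Benjamini-Hochberg adjusted p = 0.0308). Pik3cg, Pik3r5 and Inpp5d, which are mostly expressed in blood cells, fell, Pik3cg from 4.59, 3.48 and 2.20 CPM to 0.781, 0.444 and 1.46 CPM, Pik3r5 from 5.09, 4.23 and 2.46 CPM to 1.61, 1.02 and 2.00 CPM and Inpp5d from 10.8, 10.4 and 3.43 CPM to 2.07, 1.82 and 4.12 CPM. Inpp5d overlapped between the groups. In the same libraries the summed level of 8 macrophage markers was 289, 221 and 108 CPM in controls and 58.6, 44.5 and 104 CPM under βOHB, in the same order of libraries, and its part in these results was not tested. With only the 9 myotube libraries in the fit, none of the 4 was called, and 0 of all 15340 genes were, against 446 with all libraries fitted together.

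For each member the pair of genes with the most similar pattern over the 12 group means of log2 CPM was found, as a description over groups that share cell types. Insr was nearest to Acads (Pearson r = 0.984) and Cluh (0.982), Igf1r to Tspan3 (0.997) and Akr1b3 (0.995), Irs1 to Igfbp3 (0.99) and Cd55 (0.988) and Irs2 to Ppp1r3b (0.978) and Tgoln1 (0.976). Pik3r1 was nearest to Isoc1 (0.99) and Ahcyl1 (0.981), Inppl1 to Pip4p2 (0.986) and Cog6 (0.979), Akt1 to Vps9d1 (0.976) and Rest (0.975), Akt2 to Ndufs3 (0.983) and Amotl2 (0.971) and Grb14 to Nrn1 (0.995) and Tmem56 (0.994). Among the members themselves, r was highest between Irs1 and Akt2 (0.909) and between Irs2 and Pik3r1 (0.906) and lowest between Irs2 and Inppl1 (-0.929).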

How the data were processed

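RNA was sequenced from 36 bulk cultures of primary mouse cells, 12 groups of 3. The authors quantified transcripts with Salmon 1.2.1 against GENCODE release annotation of GRCm38.p6 and summed them to genes, and the deposited values are estimated counts per gene. Libraries were made with random primers, and whether counting used strand was not given in the sources used here, so reads of overlapping antisense genes may be shared. Estimated counts were rounded to whole numbers, scaled by TMM (trimmed mean of M-values) and tested with edgeR 4.0.16 (R 4.3.3) by the quasi-likelihood F test, in a single model of 12 group means over all 36 libraries. Genes above 1 CPM in at least 6 libraries were kept (15340). Calls were made at a Benjamini-Hochberg adjusted p below 0.05 over all tested genes, per comparison, and differences of effects between cell types were tested as contrasts of the same model. Ratios between members used log2 CPM per kb with a prior count of 2. Gene spans and lengths came from an earlier GENCODE release of the same assembly. The steps were tested on simulated counts.

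Libraries held 18366289 to 23221473 estimated counts, and counts behind low members are given with them. Named genes were the 9 members, then within each role of the wider list the raised and the lowered gene of greatest mean absolute log2 change among those called in the same direction in all 4 cell types, any gene of that list called under βOHB, and the 2 genes most similar to each member. Inpp5d and Grb10 were named as relatives of members, and some genes that meet these rules are not reported here. These relatives and the genes of the closing observations were singled out after their values were seen. The members and gene lists were chosen with earlier results of these data known. Alternatives were limma-voom 3.58.1, DESeq2 1.42.0, RLE factors (the median-ratio scaling), library totals alone, 3 other filters on low counts, only the libraries of a cell type, a replicate block, each library left out in turn, a prior count of 0.5, the longest transcript as length, and, added after the data were seen, leaving out 3 butyrate libraries with RNA of another cell type.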

Additional observations from a re-analysis of the deposited data

Results flagged for a closer look

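Butyrate effects that differed between cell types, by a test of the 4 effects against each other in edgeR with Benjamini-Hochberg adjustment, were found for 8 of the 9 members, where 74.5% of all genes passed the same test. The span from the lowest to the highest log2 fold change was 1.24 for Irs2 (macrophages to myotubes, adjusted p = 1.08e-07), 1.19 for Grb14 (hepatocytes to myotubes, adjusted p = 4.7e-10), 0.993 for Irs1 (hepatocytes to macrophages, adjusted p = 5.4e-05) and 0.926 for Igf1r (myotubes to hepatocytes, adjusted p = 0.000362). It was 0.919 for Insr (adipocytes to macrophages, adjusted p = 1.01e-07), 0.598 for Pik3r1 (macrophages to myotubes, adjusted p = 0.00417), 0.416 for Akt1 (hepatocytes to adipocytes, adjusted p = 0.000206) and 0.301 for Akt2 (macrophages to myotubes, adjusted p = 0.00592). Insr and Grb14 had significant effects of opposite sign, with Insr lower in adipocytes and higher in macrophages, and Grb14 higher in myotubes and adipocytes and lower in hepatocytes. Groups of 3 libraries are too small for the outlier test used on larger groups.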

How the results depend on the processing

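The decreases of Inppl1, Akt1 and Akt2 and the increases of Irs2 in adipocytes, myotubes and hepatocytes passed in all 16 alternative settings of each. Over all members and cell types, 4 butyrate calls were lost and 9 gained under alternatives other than a left-out library, and 204 of 216 values kept their call with a library left out. No member was called under βOHB in any of the 15 alternative settings of each. Beside the changes given in the report, Irs1 in adipocytes was lost with library totals alone (-0.16) and when adipocyte libraries were fitted by themselves (-0.24). With library totals alone, Irs1 (0.30) and Irs2 (0.45) passed in macrophages, and Insr was higher in control adipocytes than in hepatocytes (0.218, against -0.02). That scaling gave median butyrate log2 changes of all genes of 0.202 in macrophages, 0.133 in myotubes, 0.073 in adipocytes and 0.013 in hepatocytes, in place of 0.0, 0.0, 0.0 and -0.008, and moved the numbers of all genes raised and lowered from 4886 and 5086 to 6685 and 3339 in macrophages, from 5083 and 5117 to 6271 and 3873 in myotubes and from 4717 and 4642 to 5406 and 3793 in adipocytes. Among wider pathway genes called under βOHB, the number was 1 in adipocytes with no filter on low counts (192 of all 32246 genes), 0 in myotubes when myotube libraries were fitted by themselves (0 of all 15340) and 3 to 5 with a library left out, and 0 to 1 in hepatocytes with a library left out. The test of the 4 Inppl1 effects also passed without butyrate replicate 3 of adipocytes or of macrophages, or control replicate 2 of hepatocytes, and that of Akt2 was lost with no filter. Over the 4 cell types together, same-numbered libraries deviated together little (36 pairs, r from -0.264 to 0.273, 4 above 0.1, 13 of 36 libraries correlating best with their own number). In adipocytes r was positive for every same-numbered pair except replicate 2 of control and βOHB (-0.107), and at most 0.225. Correlations this weak cannot show whether the numbers pair the libraries. A fit with the replicate block left the butyrate calls of the members as they were. Among their pairwise differences, those of Insr and Inppl1 between macrophages and hepatocytes were lost and that of Pik3r1 was gained. Depth limits Igf1r in hepatocytes and Grb14 in macrophages most, on 24 to 41 and 79 to 88 counts per control library. The causes of these changes were not tested.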

Other observations

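Genes of glucose handling downstream of Akt, singled out after their values were seen, moved in different directions under butyrate. Slc2a4, which encodes the insulin-responsive glucose transporter GLUT4, was at 89.3, 88.2 and 90.7 CPM in control adipocytes and 107.7, 108.7 and 113.3 CPM under butyrate (0.30 ± 0.11 on the log2 scale, edgeR, Benjamini-Hochberg adjusted p = 0.023), and at 32.3, 42.2 and 39.2 CPM in control myotubes and 26.2, 27.9 and 17.9 CPM under butyrate (-0.66 ± 0.12, adjusted p = 3.04e-05). It also appeared in cells where it was near or at the limit of detection: macrophages went from 2, 1 and 2 counts per library to 147, 145 and 146 counts, and hepatocytes from 0 counts in each control to 51, 41 and 27 counts, at least 11.6-fold higher against a floor of 3 counts per library. βOHB libraries held at most 4 counts of Slc2a4 in macrophages and 1 in hepatocytes. The sum over 8 myotube markers, from cells that also express Slc2a4, was 6.95 to 14.3 CPM in control and 25.2 to 80.6 CPM in butyrate libraries of macrophages, and 25.4 to 26.1 CPM and 39.8 to 45.1 CPM in hepatocytes. In hepatocytes the mean of Acta1 rose from 15.6 to 37.6 CPM. Every other marker of that list was lower there under butyrate, as Myh3 was, at 3.8 CPM in controls and 1.9 CPM under butyrate. The sum over 8 adipocyte markers was 119 to 125 CPM and 110 to 119 CPM in macrophages, and 22.9 to 24.2 CPM and 27.8 to 30.9 CPM in hepatocytes. Of this list in hepatocytes, the mean of Fabp4 rose from 3.99 to 9.52 CPM and that of Cidec from 2.74 to 10.4 CPM, while Pparg fell from 16.8 to 9.12 CPM. The part of such cells in these counts was not tested.

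Pck1, a rate-limiting enzyme of gluconeogenesis and glyceroneogenesis, fell in adipocytes from 38.7, 35.8 and 29.6 CPM to 3.06, 3.71 and 3.90 CPM (-3.28 ± 0.26, edgeR, Benjamini-Hochberg adjusted p = 7.61e-11) and in hepatocytes from 86.5, 85.0 and 81.8 CPM to 38.8, 32.0 and 28.4 CPM (-1.35 ± 0.21, adjusted p = 2.88e-06). Gys2, the liver form of glycogen synthase, rose in hepatocytes from 17.2, 18.0 and 17.7 CPM to 49.6, 49.3 and 49.2 CPM (1.48 ± 0.16, edgeR, Benjamini-Hochberg adjusted p = 2e-08).

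Igfbp1, a liver gene that insulin represses, was at 1.63, 33.1 and 6.89 CPM in the 3 butyrate libraries of myotubes and at 1, 0 and 0 counts in the controls. The summed level of 8 hepatocyte markers in the same butyrate libraries was 35.2, 632 and 149.7 CPM, in the same order, and its part in these values was not tested.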
